A study of Mus musculus with 32 samples.

Results

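Cardiac alpha-actin (*Actc1*), skeletal alpha-actin (*Acta1*) and the noncoding RNA genes *C130080G10Rik* and *A530058N18Rik*, which lie around *Actc1* on chromosome 2, were followed in the muscle of *Mtm1* KO and WT mice at 4 ages. The genes were chosen on values of this same dataset, because *Actc1*, *C130080G10Rik* and *A530058N18Rik* were among the genes with the lowest KO level relative to WT at P21, and *C130080G10Rik* also at P35. *Acta1* was added as the other actin of striated muscle. The 4 symbols belonged to 5 of the 54838 gene IDs in the count table. Of these 5 IDs, 4 passed the filter on low counts, and the remaining one, a second ID of *A530058N18Rik* (ENSMUSG00000087694), had a count in 7 of 32 libraries and at most 4 in any of them. Since the choice used P21, comparisons of these genes that involve a P21 group are given below as descriptions without a test. The same holds for those of *C130080G10Rik* at P35. Where other ages were compared in a fit over all 32 libraries, the P21 libraries still entered the spread and scaling.

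RNA came from the tibialis anterior (TA) muscle, which the sample labels give as skeletal muscle. There were 8 groups of n=4 libraries, namely WT and *Mtm1* KO mice at P1, P14, P21 and P35 (days after birth). The KO animals (*Mtm1*-/y) lacked exon 4 of *Mtm1*, the gene of the lipid phosphatase myotubularin, whose loss causes X-linked myotubular myopathy. The labels give C57BL6/J as the strain of both genotypes, onto which the line had been moved from another inbred background. No other allele or agent was named for any group. The labels give separate samples without naming litters, so *P*-values measure the spread between these samples.

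Library totals ranged from 49321035 to 85631408 counts. *Mtm1* was lower in each KO library than in any WT library of its age, with 5.261 to 6.016 CPM (counts relative to the scaled library total) in WT and 2.321 to 3.913 CPM in KO at P1, and with 18.86 to 24.93 CPM in WT and 2.643 to 4.51 CPM in KO from P14 on. Genes of fast fibres, which make up most of the TA, summed to 5240 CPM or more in every library. Markers of keratinocytes summed to between 1500 and 5810 CPM in the P1 libraries and to between 2.51 and 6.27 CPM at the later ages. Fewer cells of a type and less RNA per cell cannot be told apart in such bulk samples.

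Actin is the protein of the thin filaments, along which myosin pulls to shorten the sarcomere. Striated muscle makes cardiac and skeletal alpha-actin, which are nearly identical proteins encoded by separate genes. *Actc1* is the main actin of the heart and is also used by developing skeletal muscle, where *Acta1* takes over as the fibres mature. Both genes are known targets of serum response factor (SRF), which binds a DNA element called the CArG box. No role is established here for the noncoding genes of the locus.

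The promoters of both actin genes and of *C130080G10Rik* are shown because the actin genes share a CArG box and the noncoding gene beside *Actc1* has none in this stretch. The sequences are those of RefSeq on GRCm38.p6, cover the 250 bases before the RefSeq start of each gene and read 5′ to 3′ along the gene. Capitals mark the CArG box and, for *Acta1*, the letters TATAAA. The windows are chr2:114052876-114053125 on the minus strand for *Actc1*, chr8:123894776-123895025 on the minus strand for *Acta1* and chr2:114054146-114054395 on the plus strand for *C130080G10Rik*.
Actc1: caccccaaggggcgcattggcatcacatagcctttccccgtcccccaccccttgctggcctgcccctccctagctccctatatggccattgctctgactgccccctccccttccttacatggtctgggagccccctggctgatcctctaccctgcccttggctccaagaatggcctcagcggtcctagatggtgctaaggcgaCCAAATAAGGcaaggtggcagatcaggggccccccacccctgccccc
Acta1: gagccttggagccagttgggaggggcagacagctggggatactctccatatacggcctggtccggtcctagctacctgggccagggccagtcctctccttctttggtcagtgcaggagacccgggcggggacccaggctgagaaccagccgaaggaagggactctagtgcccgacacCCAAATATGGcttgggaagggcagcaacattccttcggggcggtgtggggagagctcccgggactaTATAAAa
C130080G10Rik: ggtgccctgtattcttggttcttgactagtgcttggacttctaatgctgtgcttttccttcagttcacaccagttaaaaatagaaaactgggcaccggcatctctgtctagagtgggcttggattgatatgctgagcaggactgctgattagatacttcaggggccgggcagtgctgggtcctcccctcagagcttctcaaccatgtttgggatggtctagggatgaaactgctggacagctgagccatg

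In *Actc1* the CArG box began 47 bases before the start, and in *Acta1* it began 73 bases before the start. Searched on both strands from 250 bases before to 50 bases after the start, a CArG box stood in 535 of 32851 RefSeq windows (1.63%). In *Acta1* the TATAAA began 7 bases before the start, and a MCAT element (CATTCC) began 46 bases before it, motifs found in 13.6% and 14.7% of all windows. In *Actc1* the same TATAAA letters lay 34 bases after the start. An E-box (CANNTG), the element of myogenic factors, stood in the windows of all 4 genes, as 72.3% of windows hold at least 1. It lay 13 bases before the start in *C130080G10Rik*, 238 and 221 bases before it in *Acta1* and 9 bases after it in *Actc1*. In *A530058N18Rik* it lay 156 and 104 bases before the start and 10 bases after it. The *Actc1* window lay in the first intron of the longer gene model of GENCODE M21, apart from 12 bases of exon, and 61 bases of the *C130080G10Rik* window lay in the first exon of its GENCODE model. The *Acta1* window overlapped no annotated exon. All 250 bases before the RefSeq start of *A530058N18Rik* lay in exon sequence of *Gjd2*, a gene on the opposite strand. The matches describe these letters only.

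On GRCm38, *Actc1* (ENSMUSG00000068614) spans bases 114047282 to 114053548 of chromosome 2 on the minus strand, and *Acta1* (ENSMUSG00000031972) spans 123891769 to 123894751 of chromosome 8, also on the minus strand. *C130080G10Rik* (ENSMUSG00000092397), annotated as antisense, starts 786 bases from the GENCODE start of *Actc1* and runs the other way, from 114054335 to 114064868. *A530058N18Rik* (ENSMUSG00000092201), a processed transcript, runs from 114013563 to 114068324 on that same plus strand, so that *Actc1* lies within one of its introns. Its exons shared 0 bases with those of *Actc1*, 1001 bases with those of *C130080G10Rik* and 57 bases with those of *Gjd2* on the opposite strand. Reads from shared exons of the noncoding genes have to be split between them, and their expected counts were not whole numbers in 31 of 32 libraries each, against 0 libraries for *Actc1* and 2 for *Acta1*. Libraries were made with a directional kit, but the use of strand in counting is not given in the sources used here, so values of the 2 noncoding genes are less certain than those of the actins.

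**Figure D1:**
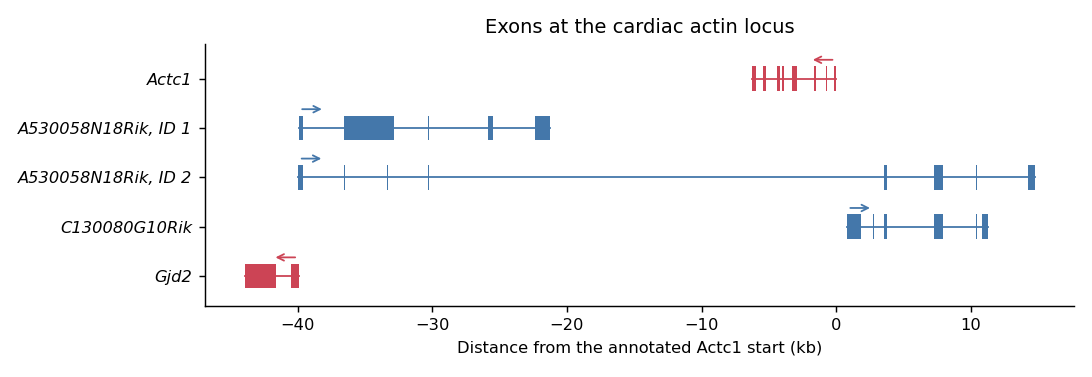
Exons (boxes) and introns (lines) of the genes at the cardiac actin locus by distance in kb from the GENCODE start of *Actc1*, with red for the minus strand, blue for the plus strand and arrows for the direction of transcription. ID 2 of *A530058N18Rik* is the one that passed the filter, and *C130080G10Rik* starts 786 bases from *Actc1* and shares 1001 exon bases with that ID.

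*Actc1* was abundant in WT muscle at every age. It was lower in KO than in WT without overlap of libraries at P14, P21 and P35, as were 1.47%, 9.4% and 17.4% of genes. At P1 its level was 2540, 3433, 3097 and 3149 CPM in the WT libraries (mean 3055 ± 373.5, SD, n=4) and 2788, 2927, 3295 and 1950 CPM in the KO libraries (2740 ± 568.5). At P14 it was 4761, 4282, 6014 and 4215 CPM for WT (4818 ± 833.7) and 2281, 2727, 3329 and 3292 CPM in KO (2907 ± 500.4). The genotypes overlapped at P1, whereas at P14 the highest KO library stood below the lowest WT library. At P21 the level was 9319, 4765, 2545 and 3884 CPM for WT (5128 ± 2939) and 311.3, 565.1, 528.8 and 569.2 CPM in KO (493.6 ± 122.9). At P35 it was 2735, 2246, 2242 and 2147 CPM for WT (2342 ± 265.4) and 346.7, 51.68, 499.8 and 448.5 CPM in KO (336.7 ± 200.4). Relative to the mean, the SD at P21 was larger in WT (57.3%) than in KO (24.9%). At P35 it was smaller in WT (11.3%) than in KO (59.5%), with replicate 2 of KO far below the other KO libraries. Counts behind these levels were between 3504 and 379396 per library, so that counting error was small beside the spread between mice.

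The order of the group means of *Actc1* was WT P21, WT P14, WT P1, KO P14, KO P1, WT P35, KO P21 and KO P35. Neighbours in this order overlapped in their library ranges except at 2 steps. These were between WT P14 and WT P1 and between WT P35 and KO P21.

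*Acta1* was the more abundant actin gene throughout, and its level differed less between the genotypes. In WT it was 16420 ± 1985 CPM at P1, 32980 ± 3868 at P14, then 40150 ± 4464 at P21 and 33290 ± 3828 at P35 (SD, n=4). In KO it was 14540 ± 4056 CPM at P1, 30060 ± 3949 at P14, then 30890 ± 1636 at P21 and 19370 ± 2741 at P35. The library ranges overlapped at P1 and P14 and were apart at P21 (29390 to 33080 CPM in KO, 36130 to 44190 CPM in WT) and at P35 (16150 to 22850 CPM in KO, 28340 to 37400 CPM in WT). KO lay below WT without overlap in 9.4% of all genes at P21 and in 17.4% at P35. The order of the means was WT P21, WT P35, WT P14, KO P21, KO P14, KO P35, WT P1 and KO P1, in which only KO P14 and KO P35 were neighbours without overlap. As a share of all counts in a library, *Acta1* made up 2.467 ± 0.2391% in WT and 1.933 ± 0.2666% in KO at P35.

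**Figure D2:**
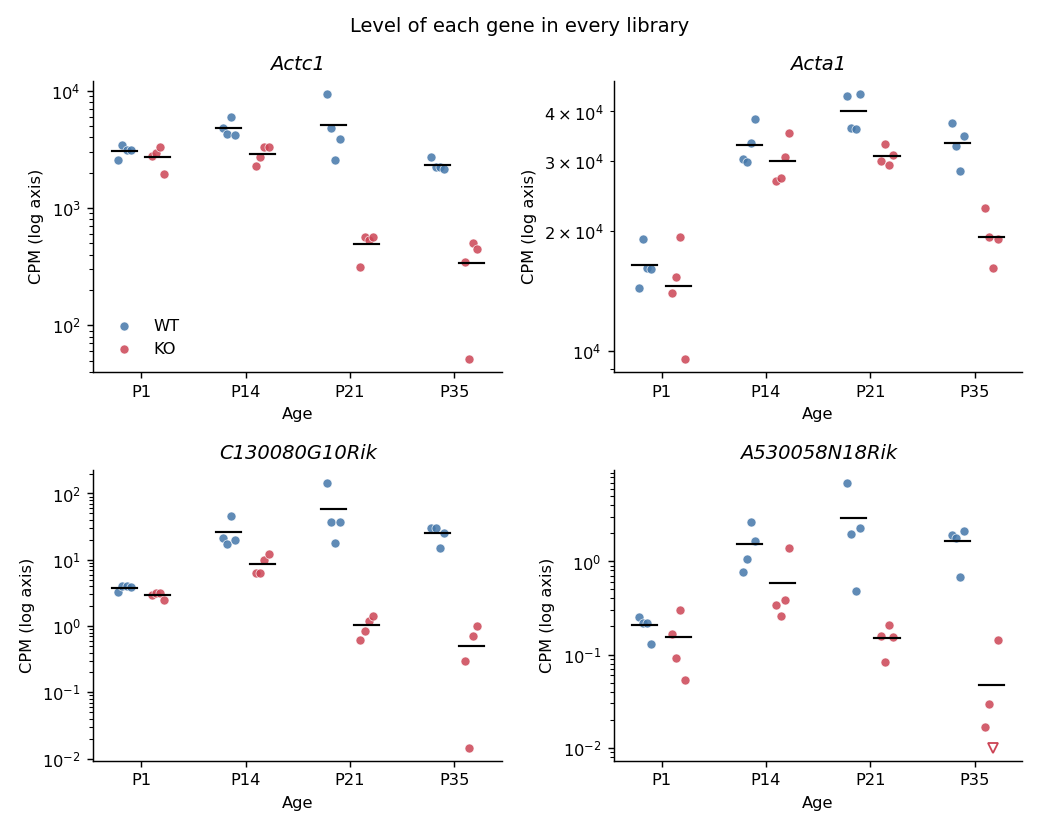
Level of each gene in CPM on a log axis by age, with 1 point per library, blue for WT, red for KO and a black line at the mean of each group of 4. *Actc1* and both noncoding genes lie far lower in KO than in WT at P21 and P35, *Acta1* lies closer to WT, and the open triangle stands for the KO P35 library with 0 counts of *A530058N18Rik*.

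KO was compared with WT at each age by edgeR's quasi-likelihood (QL) test, with Benjamini-Hochberg adjusted *P*-values over every gene in the fit. Genes that changed over 1.5-fold either way at an adjusted *P* under 0.01 are called DEGs. At P1, 0 of the 4 genes were DEGs, against 0.0442% of all genes tested. An unadjusted *P*-value under 0.05 in edgeR was found for 1 of the 4 (*C130080G10Rik*) and for 1978 of all 18100 genes. DESeq2 also called 0 of them. *Actc1* had a log2 fold change of -0.14 (adjusted *P*=0.775, SE 0.173) and *Acta1* of -0.16 (adjusted *P*=0.803, SE 0.221) in the edgeR test. Only *C130080G10Rik* had KO libraries that were all below WT at P1, which held for 4.74% of the 18583 genes that passed the filter over all libraries.

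At P14, *Actc1* and *C130080G10Rik* were lower in all KO libraries than in any WT library, as were 1.47% of all genes, and whether they were called depended on the fit. Without a block, edgeR called 0 of the 4 genes and 0.0318% of all genes. Its unadjusted *P*-value was under 0.05 for 3 of the 4 and for 1072 of all 15728 genes. *Actc1* had a log2 fold change of -0.73 (adjusted *P*=0.26, SE 0.167) in that edgeR test, *C130080G10Rik* of -1.59 (adjusted *P*=0.231, SE 0.345), *A530058N18Rik* of -1.40 (adjusted *P*=0.705, SE 0.579) and *Acta1* of -0.14 (adjusted *P*=0.968, SE 0.178). Same-numbered WT and KO libraries tended to deviate together at this age, though the labels do not say what the replicate numbers stand for. In a fit that took this number as a block, edgeR called 0.623% of all genes. In this blocked fit *Actc1* fell by 0.73 on the log2 scale (adjusted *P*=0.00364, SE 0.101) and *C130080G10Rik* fell by 1.54 (adjusted *P*=0.00193, SE 0.185), whereas *Acta1* (log2 fold change -0.14, adjusted *P*=0.353) and *A530058N18Rik* (-1.47, adjusted *P*=0.0396) did not pass. DESeq2 was run without the count filter and called 0.207% of its 26596 genes, whereas the edgeR shares are of 15728 genes. It called the same 2 members, with adjusted *P*=0.00239 for *Actc1* and 6.84e-04 for *C130080G10Rik*.

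At P21, the age on which the genes were chosen, the edgeR log2 fold change of KO against WT was -3.35 (SE 0.386) for *Actc1*, -0.37 (SE 0.114) for *Acta1*, -5.82 (SE 0.701) for *C130080G10Rik* and -4.23 (SE 0.766) for *A530058N18Rik*. All 4 genes had KO libraries below every WT library, as had 9.4% of all genes, and 4.67% of genes tested were DEGs at this age. The highest values of *Actc1*, *C130080G10Rik* and *A530058N18Rik* were those of WT replicate 1. Without that library the log2 fold change was -2.92 for *Actc1*, -4.91 for *C130080G10Rik* and -3.36 for *A530058N18Rik*. With scaling by library totals the value of *Acta1* was -0.17, the median of all genes moving by 0.19.

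At P35, *Actc1* and *Acta1* fell, at an age when 16% of all genes tested were DEGs, and the noncoding genes are described only. *Actc1* fell by 2.78 on the log2 scale (adjusted *P*=0.00334 in edgeR's QL test, SE 0.546), which is 6.85-fold. *Acta1* fell by 0.76 (adjusted *P*=0.00641, SE 0.169), which is 1.69-fold. *A530058N18Rik*, which passed the filter through the WT libraries and is therefore given without a test, had a log2 fold change of -5.10 (SE 0.686). Its KO libraries held 1.02, 1.55, 0 and 7.68 counts against 277.34 summed over WT, so that the size of the fitted change depends on the few KO counts and is -6.50 without replicate 4 of KO. *C130080G10Rik* had a log2 fold change of -5.63 (SE 0.602). All 4 genes had KO libraries below every WT library, as had 17.4% of all genes.

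In edgeR the calls of the actins at P35 were close to the threshold. Without replicate 1 of KO, *Actc1* had a log2 fold change of -2.79 (adjusted *P*=0.0107 in edgeR's QL test), while without the low replicate 2 of KO it was -2.42 (adjusted *P*=6.86e-05). *Acta1* had an adjusted *P*-value in edgeR between 0.0101 and 0.0221 when replicate 1, 2 or 4 of WT or replicate 1, 3 or 4 of KO was left out. Scaled by library totals, which moved the median of all genes by 0.40 at this age, the log2 fold change of *Acta1* was -0.35 (adjusted *P*=0.0711 in edgeR) and was not called. Its call was also lost with the replicate number as a block (adjusted *P*=0.0148 in edgeR). DESeq2 called both actins, with adjusted *P*=4.43e-05 for *Actc1* and 4.85e-08 for *Acta1*.

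The share of cardiac actin among the 2 alpha-actins was taken within each library, which needs no scaling between libraries. It was computed as *Actc1* over the sum of *Actc1* and *Acta1*, each per kb of exon, and is given in percent of transcripts by length. In WT it was 14.4, 14.5, 15.4 and 15.7% at P1 (mean 15.0 ± 0.646), 13.0, 12.0, 14.6 and 9.46% at P14 (12.3 ± 2.16), 16.8, 11.0, 6.27 and 7.7% at P21 (10.5 ± 4.68) and 6.49, 6.13, 6.98 and 5.54% at P35 (6.29 ± 0.609). In KO it was 16, 15.4, 13.9 and 16.2% at P1 (15.4 ± 1.05), 7.47, 8.67, 9.31 and 8.12% at P14 (8.39 ± 0.781), 0.978, 1.6, 1.68 and 1.71% at P21 (1.49 ± 0.344) and 1.42, 0.253, 2.85 and 2.18% at P35 (1.68 ± 1.12). The genotypes were alike in range at P1, and every KO library lay below every WT library at the 3 later ages.

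The difference of KO minus WT in this share was 0.361 percentage points at P1 (SE 0.615, *P*=0.6), -3.86 at P14 (SE 1.15, *P*=0.0286) and -4.61 at P35 (SE 0.635, *P*=0.0286) by the exact permutation test, two-sided. Over these 3 ages the adjusted values of the exact test were 0.6, 0.0429 and 0.0429. The smallest *P*-value that 70 assignments allow is 0.0286, and exchange within same-numbered pairs cannot go below 0.125, which is what it gave at P14 and P35. At P21 the difference was -8.96 points (SE 2.35), given without a test. The WT share was 1.46-fold the KO share at P14, 7.02-fold at P21 and 3.75-fold at P35.

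**Figure D3:**
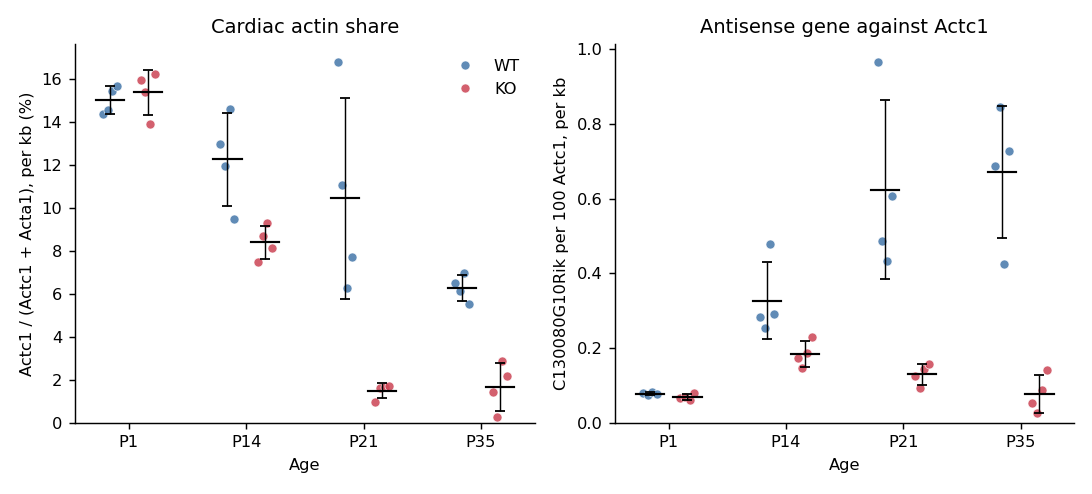
Left, share of *Actc1* in the sum of *Actc1* and *Acta1* per kb in percent, and right, *C130080G10Rik* per 100 *Actc1* per kb, by age, with 1 point per library, blue for WT, red for KO, a black line at the mean and bars of 1 SD (n=4). In both panels the genotypes meet at P1 and every KO library lies below every WT library from P14 on.

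In WT, *Actc1*, *Acta1* and both noncoding genes rose from P1 to P14, at ages between which 55.1% of all genes tested were DEGs. *Acta1* rose by 1.00 on the log2 scale (adjusted *P*=5.65e-04 in edgeR's QL test, SE 0.179), *C130080G10Rik* by 2.77 (adjusted *P*=1.91e-05, SE 0.302) and *A530058N18Rik* by 2.88 (adjusted *P*=1.16e-04, SE 0.41). *Actc1* rose by 0.65 (adjusted *P*=0.00318, SE 0.153), but its log2 fold change was -0.12 (adjusted *P*=0.421 in edgeR) when libraries were scaled by their totals, a scaling that moved the median of all genes by -0.77 and left *Acta1* at 0.22 (adjusted *P*=0.0577). Its call was also lost without replicate 1 of WT P1 (0.57, adjusted *P*=0.0112 in edgeR) and without replicate 3 of WT P14 (0.53, under the fold threshold), and with all 32 libraries in 1 fit (0.66, adjusted *P*=0.123 in edgeR). The P1 libraries were those with keratinocyte markers, and their part in these differences was not tested.

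In KO the same interval gave a different set of calls, with 52.6% of all genes tested being DEGs. *C130080G10Rik* rose by 1.54 on the log2 scale (adjusted *P*=1.45e-04 in edgeR's QL test, SE 0.219) and *Acta1* by 1.02 (adjusted *P*=0.00865, SE 0.284). *Actc1* had a log2 fold change of 0.06 (adjusted *P*=0.818, SE 0.208) in edgeR, and of -0.66 (adjusted *P*=0.00334) with scaling by library totals, where the median of all genes moved by -0.71 and *Acta1* stood at 0.31 (adjusted *P*=0.197). *A530058N18Rik* had a log2 fold change of 1.92 (SE 0.651), and of 2.43 without replicate 3 of KO P1. It is given without a test because of its low counts in KO at P1 (6.41 to 25.7). The call of *Acta1* was lost in edgeR, with adjusted *P*-values of 0.0103 to 0.0321, when replicate 1 or 2 of KO P1 or replicate 2, 3 or 4 of KO P14 was left out. None of the 4 genes passed the interaction test of this change between the genotypes in edgeR over all 32 libraries (adjusted *P*=0.808 to 1.0, and 0 with an unadjusted *P*-value under 0.05). Of all genes 0.0161% passed, at an adjusted *P* under 0.01 without a fold threshold, and DESeq2 also called 0 of the 4. An unadjusted *P*-value under 0.05 in that edgeR test was found for 1200 of all 18583 genes. The SE was smaller with only the 16 libraries of P1 and P14. The difference was then -1.24 for *C130080G10Rik* (SE 0.388 instead of 0.656, adjusted *P*=0.445 in edgeR) and -0.59 for *Actc1* (SE 0.257 instead of 0.543, adjusted *P*=0.627), neither called.

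From P14 to P35 in WT, *Actc1* fell by 1.05 on the log2 scale (adjusted *P*=8e-04 in edgeR's QL test, SE 0.152), 15.6% of all genes tested being DEGs. *Acta1* had a log2 fold change of 0.00 (adjusted *P*=0.987, SE 0.19) and *A530058N18Rik* of 0.09 (adjusted *P*=0.874, SE 0.427) in that edgeR test. *C130080G10Rik* had a log2 fold change of -0.06 (SE 0.324), given without a test. Of the 3 genes tested in this interval in WT, *Actc1* alone passed, and its call was lost in edgeR when all 32 libraries shared 1 fit (-1.04, adjusted *P*=0.0327).

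In KO, *Actc1* fell by 3.10 on the log2 scale between P14 and P35 (adjusted *P*=0.00256 in edgeR's QL test, SE 0.567), and 17.4% of all genes tested were DEGs. *A530058N18Rik*, whose level was highest at P14, had a log2 fold change of -3.64 (SE 0.864), given without a test, and of -5.06 without replicate 4 of KO P35. *Acta1* had a log2 fold change of -0.63 (adjusted *P*=0.0296, SE 0.198) and did not pass, though DESeq2 called it (-0.64, adjusted *P*=3.05e-05), as did edgeR with all 32 libraries in 1 fit (-0.63, adjusted *P*=0.00379). *C130080G10Rik* had a log2 fold change of -4.11 (SE 0.654), given without a test.

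Whether the KO effect on *Actc1* was called as larger at P35 than at P14 depended on the fit. In edgeR's interaction test over all 32 libraries *Actc1* passed, as did 8.53% of genes, without a fold threshold. That fit takes its spread partly from the P21 libraries, on which *Actc1* was chosen. The difference was -2.07 on the log2 scale (adjusted *P*=0.00932 in edgeR's QL test, SE 0.549), just under the threshold. It was not called in edgeR, with adjusted *P*-values of 0.0112 to 0.0206, when any 1 library of WT P14 or WT P35, replicate 2, 3 or 4 of KO P14 or replicate 1 of KO P35 was left out, nor with scaling by library totals (-1.73, adjusted *P*=0.0129) or with only the 16 libraries of P14 and P35 (adjusted *P*=0.0265). *Acta1* (-0.65, adjusted *P*=0.0656, SE 0.244) did not pass in edgeR. For *A530058N18Rik* the difference was -3.75 (SE 1.06), and -5.16 without replicate 4 of KO P35. It is given without a test because of the few counts in KO at P35. The difference for *C130080G10Rik* was -4.07 (SE 0.738), given without a test.

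Changes between P14 and P21 are given as descriptions. In WT the log2 fold change over this week was 0.07 (SE 0.339) for *Actc1* and 0.27 (SE 0.182) for *Acta1*. In KO it was -2.57 (SE 0.216) for *Actc1* and 0.02 (SE 0.155) for *Acta1*. From P21 to P35 the log2 fold change of *Actc1* was -1.13 (SE 0.328) in WT and -0.54 (SE 0.53) in KO, and that of *Acta1* was -0.28 (SE 0.157) in WT and -0.66 (SE 0.131) in KO. Without replicate 1 of WT P21 the WT values of *Actc1* were -0.36 from P14 to P21 and -0.70 from P21 to P35, and without replicate 2 of KO P35 the KO value from P21 to P35 was -0.18. In KO the lowest value relative to the preceding age was thus that of P21 for *Actc1* and that of P35 for *Acta1*.

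*C130080G10Rik* was a gene of low level in both genotypes at P1 and differed most between them at P21 and P35. In WT it had 3.227, 4.029, 4.034 and 3.883 CPM at P1, 21.55, 17.4, 46.03 and 19.6 CPM at P14, 144.1, 37.15, 17.68 and 37.63 CPM at P21 and 30.0, 30.38, 15.22 and 25.0 CPM at P35. In KO it had 2.937, 3.191, 3.148 and 2.469 CPM at P1, 6.351, 6.423, 9.973 and 12.09 CPM at P14, 0.6117, 0.8324, 1.211 and 1.445 CPM at P21 and 0.3005, 0.01475, 0.7045 and 1.016 CPM at P35. The WT and KO ranges did not overlap at any age, by a narrow margin at P1. Such a gap with KO lower was found in 4.74%, 1.47%, 9.4% and 17.4% of all genes at the 4 ages. The lowest value, in replicate 2 of KO P35, rested on 1.45 counts, which is below the 3 counts taken here as the limit of detection, and the same library was the lowest for *Actc1*. In the order of the group means, WT P21, WT P14 and WT P35 overlapped with their neighbours, as did KO P21 and KO P35, and WT P35, KO P14, WT P1, KO P1 and KO P21 followed each other without overlap.

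*A530058N18Rik* had the lowest mean level per kb of the 4 genes in each of the 8 groups. In WT its mean was 0.2051 ± 0.05301 CPM at P1, 1.537 ± 0.8332 at P14, then 2.923 ± 2.812 at P21 and 1.64 ± 0.6515 at P35. In KO it was 0.1537 ± 0.1105 CPM at P1, 0.5935 ± 0.5318 at P14, then 0.1507 ± 0.05036 at P21 and 0.04719 ± 0.06471 at P35. WT and KO libraries overlapped at P1 and P14 and did not at P21 and P35. KO lay below WT without overlap in 9.4% and 17.4% of all genes at these 2 later ages. The 4 KO libraries of P21 summed to 27.84 counts and those of P35 to 10.25 counts.

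Levels of different genes were compared per kb of exon. In WT at P14, *Actc1* had 2978 ± 515.2 CPM per kb and *Acta1* had 21470 ± 2518 CPM per kb. *C130080G10Rik* had 10.11 ± 5.167 and *A530058N18Rik* had 0.7726 ± 0.4189 CPM per kb in the same libraries. Per length, both noncoding genes were far below *Actc1* in every WT library of this age.

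The level of *C130080G10Rik* relative to *Actc1* was itself not constant. Per 100 *Actc1*, both per kb, it was 0.0779 ± 0.00348 in WT and 0.0683 ± 0.00805 in KO at P1. At P14 it was 0.327 ± 0.103 in WT (0.254 to 0.479) and 0.185 ± 0.0344 in KO (0.147 to 0.23), at P21 it was 0.624 ± 0.24 in WT and 0.13 ± 0.0283 in KO, and at P35 it was 0.672 ± 0.178 in WT and 0.0777 ± 0.0501 in KO. The WT and KO libraries overlapped in this ratio at P1 and lay apart at the 3 later ages. The ratio was chosen after its parts had been seen and is given without a test. For *A530058N18Rik* per 100 *C130080G10Rik* the WT means lay between 6.16 and 8.25 at the 4 ages and the KO means were 6.65 at P1 and 8.06 at P14, and the KO ratios at P21 and P35 rest on few counts.

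**Figure D4:**
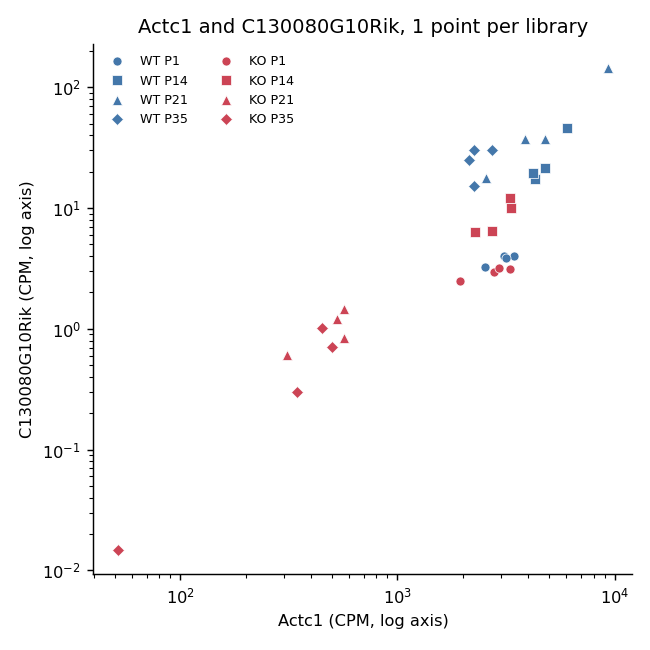
Level of *C130080G10Rik* against that of *Actc1* in CPM on log axes, with 1 point per library, blue for WT and red for KO, and a symbol for each age. Libraries with more *Actc1* mostly had more *C130080G10Rik*, P1 libraries lie low for their *Actc1*, and the KO P35 library at the lower left is replicate 2.

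Across the 32 libraries, *C130080G10Rik* was the gene whose log2 CPM was most like that of *Actc1* among 18582 genes (Pearson's r=0.886). The next were *Calcr*, the calcitonin receptor (r=0.877), *Shmt1*, an enzyme of one-carbon metabolism (r=0.864), *Mstn*, which encodes the muscle growth inhibitor myostatin (r=0.839), and *Zfp687* (r=0.835). *A530058N18Rik* ranked 97 (r=0.692) and *Acta1* ranked 4676 (r=0.221). These values describe likeness over libraries that fall into 8 groups and share their depth and scaling, and the genes at this locus had been chosen for a shared decrease.

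The likeness was also taken on deviations from the group means, which the difference between groups does not enter. *C130080G10Rik* again ranked first of 18582 genes (Pearson's r=0.932, Spearman's rho=0.823, n=32). It ranked first without the P21 libraries as well (r=0.93, n=24), and r was 0.856 without the 2 libraries farthest from the median of *Actc1*, which were replicate 1 of WT P21 and replicate 2 of KO P35. The genes that followed were *Fam213b* (r=0.839), *Dhrs7c* (r=0.812), *Reep1* (r=0.792) and *Hras* (r=0.788). *A530058N18Rik* had r=0.343 (rho=0.321) and *Acta1* had r=0.22 (rho=0.454) by this measure. Mice with more *Actc1* than others of their group thus had more *C130080G10Rik*, and *Acta1* varied less closely with *Actc1*.

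The 4 genes nearest to *Actc1* after *C130080G10Rik* had been picked for a pattern that includes the KO decrease, so their differences are given without a test. The log2 fold change of KO against WT at P21 and P35 was -2.11 (SE 0.321) and -3.15 (SE 0.326) for *Calcr*, and -1.74 (SE 0.236) and -1.37 (SE 0.111) for *Shmt1*. It was -1.35 (SE 0.426) and -2.17 (SE 0.407) for *Mstn*, and -0.40 (SE 0.11) and -0.65 (SE 0.0861) for *Zfp687*.

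The genes most like *Acta1* in level were a separate set. They were *Myom1*, a protein of the sarcomere's M-band (r=0.966), *Capn3*, a muscle protease (r=0.959), *Abcb8* (r=0.958), *Tti1* (r=0.957) and *Svil*, an actin-binding protein (r=0.957). Their log2 fold changes at P35, given without a test since likeness to *Acta1* chose them, were -0.60 (SE 0.1) for *Myom1*, -0.82 (SE 0.0792) for *Capn3*, -0.59 (SE 0.0851) for *Abcb8*, -0.53 (SE 0.0664) for *Tti1* and -0.38 (SE 0.107) for *Svil*. *Actc1* ranked 7425 by likeness to *Acta1*.

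The 4 other actin genes, which encode the cytoplasmic actins (*Actb*, *Actg1*) and the smooth muscle actins (*Acta2*, *Actg2*), had no DEG at any age by edgeR. The share of all genes was highest at P35, with 16%. At P35, *Actb* had 266.0 CPM in WT and 341.0 CPM in KO (log2 fold change 0.38, SE 0.11, adjusted *P*=0.02 in edgeR), and *Actg1* had 319.0 and 358.0 CPM (0.19, adjusted *P*=0.338, SE 0.152). *Acta2* had 98.8 CPM in WT and 114.0 CPM in KO (0.23, adjusted *P*=0.406 in edgeR, SE 0.211), and *Actg2* was at 1.74 and 2.0 CPM. Their median log2 fold change was -0.12 for P1, 0.12 for P14, -0.30 for P21 and 0.23 for P35, beside medians over all genes of 0.01, 0.00, 0.01 and 0.04.

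Within 500 kb of *Actc1* on either side the annotation held 13 further genes, of which 9 were tested at P1 and 6 at each later age. No neighbour was a DEG at P1, P14 or P21 by edgeR. Among all genes tested, 4.67% were DEGs at P21 and 16% at P35. At P35, *Zfp770*, a zinc finger gene, fell by 0.70 on the log2 scale (adjusted *P*=4.85e-04 in edgeR, SE 0.0937) and *Fmn1*, which encodes the actin nucleator formin 1, rose by 1.34 (adjusted *P*=0.00941, SE 0.325). The call of *Fmn1* was lost in 7 of 8 fits that left out 1 library, with adjusted *P*-values of up to 0.0292 in edgeR. *Aqr* (-0.24, adjusted *P*=0.0769, SE 0.0991), *Arhgap11a* (0.08, adjusted *P*=0.747), *Dph6* (-0.02, adjusted *P*=0.903) and *Gm21596* (0.48, adjusted *P*=0.193) did not pass in edgeR. Their median was -0.12 at P21 and 0.03 at P35, and *Aqr*, the nearest tested gene on one side of *Actc1*, had 27.2 CPM in WT and 25.2 CPM in KO at P21. *Gjd2*, which overlaps the first exon of *A530058N18Rik*, was tested at P1 alone, at 0.133 CPM in WT and 0.214 CPM in KO (log2 fold change 0.71, SE 0.266, adjusted *P*=0.379 in edgeR).

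**Figure D5:**
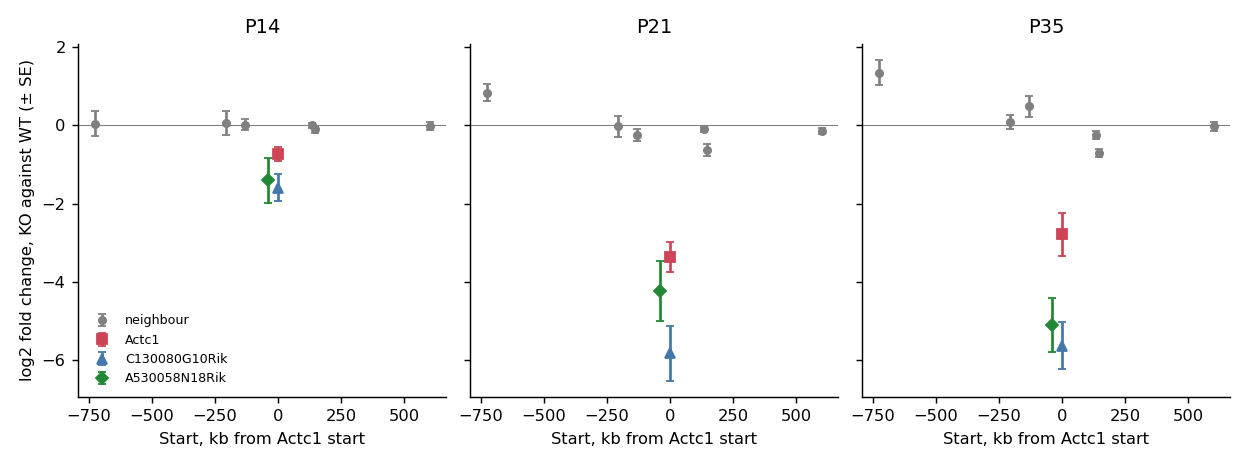
Log2 fold change of KO against WT with its SE at P14, P21 and P35 for genes with any part within 500 kb of *Actc1*, plotted by the distance of their start from the *Actc1* start in kb. The 6 neighbours (grey) lie between -0.70 and 1.34, and *Actc1*, *C130080G10Rik* and *A530058N18Rik* lie below them at P21 and P35.

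Of 23 other genes of the thin filament 7 were DEGs at P35, beside 16% of all genes, and 4 of the 5 that rose are slow-fibre genes. Of these 23 genes, 0 were DEGs at P1 and P14 by edgeR, 1 rose at P21 and 5 rose and 2 fell at P35, with a median log2 fold change of 0.00 at P35. The shares of all genes were 0.0442%, 0.0318%, 4.67% and 16% at the 4 ages. *Tnni1*, *Tnnt1* and *Tnnc1*, the slow-fibre troponins, rose by 4.50 (adjusted *P*=1.19e-05, SE 0.255), 4.40 (adjusted *P*=4.92e-05, SE 0.33) and 4.36 (adjusted *P*=8.97e-05, SE 0.374) on the log2 scale in edgeR. The 2 that fell, named after their values were seen, were *Kbtbd13* (-1.18, adjusted *P*=2.21e-04) and *Neb*, the giant ruler protein of the thin filament (-0.81, adjusted *P*=0.00309 in edgeR). The others that rose at P35 were *Tpm3*, the slow-fibre tropomyosin (1.61, adjusted *P*=9.56e-05 in edgeR), and *Klhl40*, a stabiliser of thin filament proteins (0.99, adjusted *P*=6.27e-04). *Klhl40* was also the DEG at P21 (0.70, adjusted *P*=0.00514 in edgeR, SE 0.125), a call lost in 5 of 8 fits that left out 1 library, among which the count of the list at P21 ran from 0 to 6.

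Among 15 genes of the fetal and cardiac sarcomere, the class to which *Actc1* belongs by function, those called all rose, while *Actc1* fell. Of those tested, 0 of 14 were DEGs at P1, 1 of 12 at P14, 3 of 12 at P21 and 8 of 12 at P35 by edgeR, all higher in KO, beside 0.0442%, 0.0318%, 4.67% and 16% of all genes. With 1 library left out the count ran from 0 to 1 at P14, from 1 to 4 at P21 and from 6 to 8 at P35. *Myl4*, the light chain of embryonic and atrial myosin, rose by 0.96 at P14 (adjusted *P*=0.0046 in edgeR, SE 0.082) and by 2.66 at P21 (adjusted *P*=1.62e-04, SE 0.22), with 5.01 ± 1.18 CPM in WT and 31.6 ± 7.55 CPM in KO at the latter age. Its call at P14 was lost in 6 of 8 fits that left out 1 library (adjusted *P*-values of up to 0.0398 in edgeR), and its call at P21 in 0 of 8. At P35, *Myh3*, the embryonic myosin heavy chain, rose by 4.16 (adjusted *P*=7.01e-05 in edgeR, SE 0.338), *Tnnt2*, cardiac troponin T, by 2.18 (adjusted *P*=1.12e-04, SE 0.198) and *Myl2* by 4.16 (adjusted *P*=2.32e-04, SE 0.469). The median log2 fold change of the list was 2.29 at P35, beside 0.04 over all genes. The lists overlap, as *Myl2* and *Myh7*, both called at P35, are also among the slow-fibre genes below. *Myh3* and *Myh8*, called as well, are also in the list of growing and immature muscle. *Myl3*, *Myh6* and *Tnni3* were not DEGs at P35.

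Regulators of muscle transcription and SRF itself were examined in a list of 17 genes. By edgeR 0 were DEGs at P1 and P14, 5 rose at P21, and 5 rose and 1 fell at P35, beside 4.67% of all genes at P21 and 16% at P35. With 1 library left out the count at P21 ran from 1 to 6, being 1 without replicate 2 of KO and 2 without replicate 2 of WT, and that at P35 from 5 to 7. *Mef2c* rose by 0.62 at P21 (adjusted *P*=8.72e-04 in edgeR, SE 0.0727), *Tead4* by 1.75 (adjusted *P*=0.00311, SE 0.279) and *Myog*, the gene of myogenin, by 1.35 (adjusted *P*=0.00349, SE 0.22). Of 8 such fits, 1 lost the call of *Mef2c*, 1 that of *Tead4* and 2 that of *Myog*. The gene that fell at P35, named after its value was seen, was *Mrtfa*, a coactivator of SRF (-0.84, adjusted *P*=0.00229 in edgeR, SE 0.153). *Srf* was not a DEG at any age. In a list of 10 genes of growing and immature muscle, 1 rose and 1 fell at P21 (1 to 4 called with 1 library left out). At P35, 5 rose and 1 fell, and the shares of all genes were the same as above. *Ncam1*, an adhesion molecule of immature fibres, rose by 1.91 (adjusted *P*=1.36e-04 in edgeR, SE 0.186) and *Pax7*, the marker of satellite cells, fell by 1.43 (adjusted *P*=2.48e-04, SE 0.164) at P35.

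Markers of other cell types were read beside the actins. The 6 heart muscle markers summed to 3.77 to 16.4 CPM in WT and 6.15 to 9.69 CPM in KO at P35, and *Myl7* and *Nppa* were at 0 in every P14 library. None of the heart markers that were tested was a DEG at any age by edgeR. *Nppa* passed the filter at no age, and *Myl7* and *Mybpc3* were tested at P1 alone. The level of *Actc1* was 51.68 CPM or more in every library. Genes of slow fibres summed to 172.0 to 344.0 CPM in WT and 1200.0 to 2640.0 CPM in KO at P35, where 7 of 8 were DEGs, all higher, and to 1400.0 to 1760.0 CPM in WT and 1580.0 to 1740.0 CPM in KO at P14, where 0 were. Genes of fast fibres summed to 88700.0 to 134000.0 CPM in WT and 58400.0 to 84300.0 CPM in KO at P35, without a DEG among 7. Of 5 macrophage markers 2 were higher in KO at P21 and 3 at P35, of 4 adipocyte markers 2 were higher at P35, and smooth muscle, keratinocyte and fibroblast markers had none. Among the keratinocyte markers, *Krt5*, *Krt14* and *Krt1* were tested at P1 alone. DEGs made up 4.67% of all genes tested at P21 and 16% at P35. The part of fibre type and of these cell types in the values of the actins was not tested.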

How the data were processed

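Polyadenylated RNA of the TA was sequenced as paired ends from directional libraries, 1 per mouse. The authors aligned the reads to GRCm38 with STAR 2.6.1 and deposited expected counts per gene and library, made with RSEM 1.2.22 per the submitters' processing notes, without scaling or pooling. The methods name HTSeq as the counter. RSEM shares reads between genes, and 4.26% of the values were not whole. The strand setting and the annotation release are not given in the sources used here.

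The members, gene lists and tests were chosen with earlier results of these data known. The rounded values were tested with edgeR 4.0.16 in R 4.3.3 (filterByExpr, TMM, glmQLFit, glmQLFTest, two-sided), after a test on simulated data. KO was compared with WT within each age, and ages within each genotype. Standard errors (SE) refer to log2 fold changes. Levels are CPM with 1 TMM scaling over 32 libraries, and log2 CPM used a prior count of 2. Symbols, positions and exon lengths came from GENCODE M21, which named 54809 of 54838 genes. At most 3 counts were taken as not detected, and such limits cover counting error only. The table held 0 unused columns, and no replicates agreed within sampling noise.

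Genes named besides the members were the other actins, tested neighbours, the 5 genes most alike by each measure, and from each list the 3 DEGs of lowest adjusted *P* at each age. Replicate numbers in the labels belong to different mice. Deviations from the group means of same-numbered WT and KO libraries correlated at 0.252, 0.29, 0.19 and 0.588 at P14. Libraries of different number were not compared and the labels name no pairs, so pairing at that age was not established. Alternatives were DESeq2 1.42.0, its size factors, library totals, no filter, all 32 libraries (or 16 libraries) in 1 fit, the replicate block, other gene lengths or denominators for the actin share, and leaving out each library. Figures were drawn with matplotlib 3.10.9.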

Additional observations from a re-analysis of the deposited data

Results flagged for a closer look

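In 8 of 64 sets of 4 libraries a value stood apart from the other 3, which chance gives in about 1 in 20 sets. Each is given as the gap to the nearest library over the whole range of its group. For *Actc1* this was 0.833 in WT P35, where replicate 1 (2735 CPM) was high, and 0.844 in KO P21, where replicate 1 (311.3 CPM) was low. The same KO P21 library was low in the *Actc1* share of both alpha-actins (0.978%, gap 0.85). *C130080G10Rik* stood apart in WT P14 (46.03 CPM in replicate 3, gap 0.855) and in WT P21 (144.1 CPM in replicate 1, gap 0.842), and its ratio to *Actc1* did so in WT P14 (0.479 per 100 *Actc1* in replicate 3, gap 0.836). *A530058N18Rik* stood apart in KO P14 (1.387 CPM in replicate 4, gap 0.888), and its ratio to *C130080G10Rik* in KO P35 (139.0 per 100 in replicate 2, gap 0.875), a ratio of 1.55 to 1.45 counts before the division by length. The KO effect on *Actc1* differed between P35 and P14 by -2.07 on the log2 scale (SE 0.549, adjusted *P*=0.00932 in edgeR's interaction test over 32 libraries). This call was lost in 12 of 16 fits that left out 1 library. It was also lost with library totals, with the replicate block and with only the 16 libraries of the 2 ages.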

How the results depend on the processing

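Calls refer to edgeR unless another tool is named. With DESeq2 the log2 fold change at P14 was -0.74 for *Actc1* and -1.60 for *C130080G10Rik*, both called, and *Acta1* in KO from P14 to P35 (-0.64) was called as well. For *A530058N18Rik* DESeq2 gave 1.95 in KO from P1 to P14 and -3.79 for the change in the KO effect from P14 to P35, without a test. Scaling by library totals moved the median of all genes by 0.19 at P21, by 0.40 at P35, by -0.24 from P14 to P35 in WT and by 0.34 for the change in the KO effect to P35. With it *Acta1* had -0.17 at P21 and -0.35 at P35 (not called), 0.22 from P1 to P14 in WT and 0.31 in KO (neither called), *Actc1* had -0.12 in WT and -0.66 in KO over that interval, and its change in the KO effect to P35 was -1.73 (not called). With all 32 libraries in 1 fit *Actc1* was not called from P1 to P14 (0.66) or from P14 to P35 (-1.04) in WT, and *Acta1* was called from P14 to P35 in KO (-0.63). With only 16 libraries the change in the KO effect on *Actc1* was -2.07 and not called. The cause of these changes was not tested.

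With the replicate block, *Actc1* (-0.73) and *C130080G10Rik* (-1.54) were called at P14. The calls of *Acta1* at P35 (-0.76) and from P1 to P14 in WT (1.00) and KO (1.05), of *Actc1* from P1 to P14 in WT (0.64) and of its change in the KO effect to P35 (-2.12) were lost. It changed no other call of the 4 genes. Outside P14 same-numbered libraries share only a number, with mean correlations of -0.14 at P1, 0.074 at P21 and 0.048 at P35.

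With 1 library left out at a time, the log2 fold change ranged from -3.04 to -2.42 for *Actc1* and from -0.85 to -0.69 for *Acta1* at P35, and from 0.53 to 0.72 for *Actc1* from P1 to P14 in WT. It ranged from 0.86 to 1.19 for *Acta1* and from 1.11 to 2.43 for *A530058N18Rik* from P1 to P14 in KO, from -5.06 to -2.83 for *A530058N18Rik* from P14 to P35 in KO and from -2.20 to -1.13 from P14 to P21 in KO, and from -1.18 to 0.0372 from P21 to P35 in WT, where it turned positive without replicate 1 of WT P21. The change in the KO effect to P35 ranged from -2.33 to -1.71 for *Actc1* and from -5.16 to -2.92 for *A530058N18Rik*. For the actin share, 3 against 4 libraries cannot give a *P*-value below 0.0571, so left-out values were compared by size and stayed within the spread.

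Over all genes the DEGs numbered 8 at P1 (98 by DESeq2, 2 with the block), 5 at P14 (55 and 98), 709 at P21 (1079 by DESeq2, 1157 with library totals) and 2496 at P35 (4676 with library totals). With library totals 1052 rose and 105 fell at P21 instead of 482 and 227, and 4350 rose and 326 fell at P35 instead of 1324 and 1172. The change in the KO effect was judged by an adjusted *P* under 0.01 alone, without the fold threshold of the DEGs. It passed in 3 genes from P1 to P14 (11 by DESeq2) and in 1585 from P14 to P35 (3130 with library totals). Depth limits *A530058N18Rik* and, in KO at P21 and P35, *C130080G10Rik*.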
